A study of Mus musculus with 10 samples.

Results

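The genes described here are Dlx1, Dlx2, Dlx5, Dlx6, Dlx6os1, Gad1, Gad2, Lhx6 and Slc32a1, 9 symbols picked by name as genes of the Dlx family and of GABAergic interneurons. They were found by matching Ensembl identifiers to symbols, which gave 10 of the 53379 genes in the count tables, because a short RNA that overlaps the end of Dlx6os1 carries the same symbol. That short RNA had 1 read in all and is kept apart. Of the 9 genes, 7 reached a mean of 10 reads over the libraries and were tested, and Dlx6 and Slc32a1 did not. Expression was measured by Smart-Seq2 RNA-seq of sorted cells from the E16 neocortex, with 400 cells of 1 embryo in each of 10 libraries. The 3 cKO libraries came from cKO-Cdkn1c-MADM-7 embryos of genotype MADM-7 GT,Cdkn1c/TG,Cdkn1c together with Emx1 Cre/+, in which both chromosomes carry the Cdkn1c deletion in the Emx1+ lineage, and the 7 controls from MADM-7 embryos of genotype MADM-7 GT/TG together with Emx1 Cre/+ without it. Both genotypes carry the chromosome 7 MADM cassettes and the Emx1-driven Cre recombinase, which acts in the dorsal telencephalon. GFP+, tdT+ and GFP+/tdT+ cells were sorted together, so each library also holds cells with uniparental disomy of chromosome 7. The strain is labelled CD1, and the methods of the study describe a mixed C57BL/6J and CD1 background with both sexes.

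DLX proteins are homeodomain transcription factors of the ventral telencephalon, where they act in the progenitors and young neurons that become GABAergic interneurons and striatal neurons. The genes lie in convergent pairs, Dlx1 with Dlx2 and Dlx5 with Dlx6, and earlier work places Dlx5, Dlx6 and the Gad genes downstream of DLX1 and DLX2. Cortical interneurons are born in the ganglionic eminences and reach the cortex by tangential migration, whereas the Emx1+ lineage gives rise mainly to glutamatergic projection neurons and glia. GABA is made by the glutamate decarboxylases GAD67 (Gad1) and GAD65 (Gad2) and loaded into vesicles by the transporter VGAT (Slc32a1).

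The windows before the RefSeq starts of the tested members with the largest fold changes, Dlx6os1 and Dlx2, are shown because DLX proteins are known to bind enhancers inside the Dlx pairs. RefSeq (GRCm38.p6) gave 10 transcription starts for 7 of the symbols and none for Dlx5 or Dlx6. The 250 bases before each start were searched on both strands for TAATTA, the core of many homeodomain sites, and for CANNTG, the E-box bound by basic helix-loop-helix proteins, and these motifs do not overlap in the windows shown. The windows below run 5′ to 3′ on the strand of the gene, with every TAATTA and CANNTG in capitals.
Dlx2 (chr2:71546755-71547004, minus strand): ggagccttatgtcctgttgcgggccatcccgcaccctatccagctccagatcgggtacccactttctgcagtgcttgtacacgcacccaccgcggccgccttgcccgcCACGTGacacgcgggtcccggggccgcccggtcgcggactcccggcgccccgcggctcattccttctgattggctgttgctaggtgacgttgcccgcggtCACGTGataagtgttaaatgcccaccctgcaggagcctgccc
Dlx6os1, first start (chr6:6869534-6869783, minus strand): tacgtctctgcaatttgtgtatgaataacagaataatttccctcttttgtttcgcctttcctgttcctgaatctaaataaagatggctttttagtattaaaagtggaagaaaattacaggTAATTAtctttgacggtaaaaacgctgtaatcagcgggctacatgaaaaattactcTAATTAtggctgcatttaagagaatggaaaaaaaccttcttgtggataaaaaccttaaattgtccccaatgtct
Dlx6os1, second start (chr6:6861684-6861933, minus strand): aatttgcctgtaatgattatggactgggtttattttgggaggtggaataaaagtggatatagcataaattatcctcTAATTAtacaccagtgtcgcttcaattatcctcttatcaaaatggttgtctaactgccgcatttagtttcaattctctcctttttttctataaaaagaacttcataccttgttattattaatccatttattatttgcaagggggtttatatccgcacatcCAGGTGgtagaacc
TAATTA occurred in 2 of the 10 windows, both of them of Dlx6os1, and in 4.84% of the 32851 promoter windows in the table. In the first of these windows it began 130 and 74 bases before the start, and in the second 174 bases before it. All 250 bases of the first window lie in annotated Dlx6os1 exon, inside the gene body, and the 50 bases after the second start were not found as 1 run in a Dlx6os1 transcript of the GENCODE annotation. The Dlx2 window held CANNTG 142 and 42 bases before the start and no TAATTA. The E-box letters occurred in 6 of the 10 windows and in 66.2% of all. These matches describe letters in a window, and no binding was measured.

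In the GENCODE annotation of GRCm38, Dlx1 (ENSMUSG00000041911.3) lies at chr2:71528113-71533981 on the plus strand and Dlx2 (ENSMUSG00000023391.8) at chr2:71543408-71546754 on the minus strand. Dlx6 (ENSMUSG00000029754.13) lies at chr6:6863334-6868568 on the plus strand and Dlx5 (ENSMUSG00000029755.10) at chr6:6877805-6882085 on the minus strand. Dlx6os1 (ENSMUSG00000090063.6) is an antisense RNA at chr6:6820189-6871592 whose gene body covers Dlx6 whole. The other members are on chromosome 2, with Gad2 (ENSMUSG00000026787.3) at chr2:22622205-22693874, Lhx6 (ENSMUSG00000026890.19) at chr2:36081953-36105408, Gad1 (ENSMUSG00000070880.10) at chr2:70553072-70602014 and Slc32a1 (ENSMUSG00000037771.11) at chr2:158610767-158615748. The map of the gene bodies shows which members share ground with an antisense gene.

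**Figure D1:**
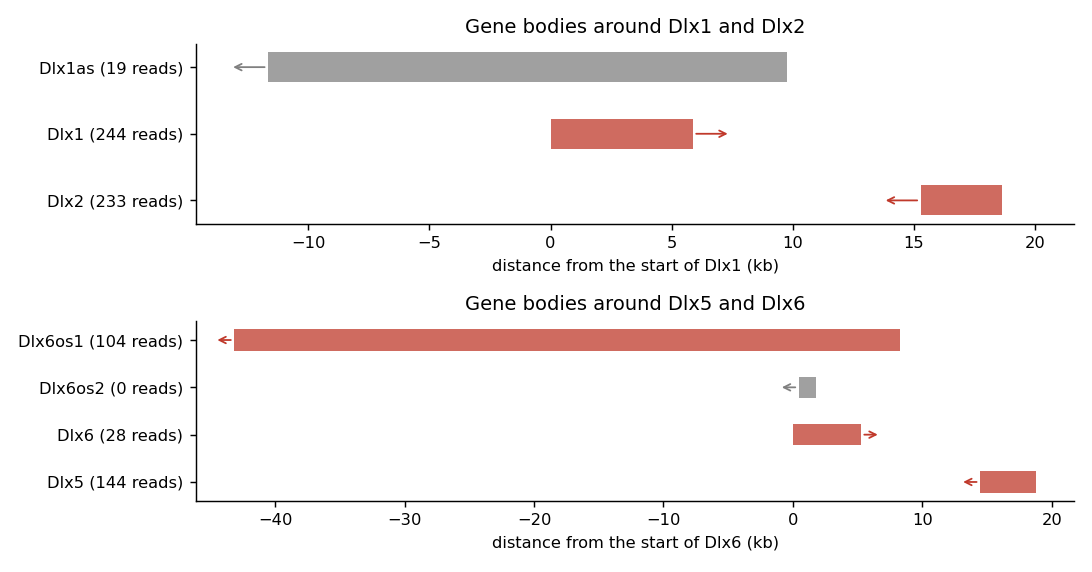
Gene bodies around the Dlx pairs, drawn by distance in kb from the start of Dlx1 (top) and of Dlx6 (bottom), with members in red, other antisense genes in grey and arrows for the direction of transcription. The number beside each name is its reads over all 10 libraries, and Dlx1 lies wholly within Dlx1as and Dlx6 within Dlx6os1.

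A read over exons of more than 1 gene is left out of the counts used here, and the libraries carry no strand information, so reads of Dlx1 and Dlx1as, or of Dlx6 and Dlx6os1, could not be told apart where their exons overlap. Such exons were a small part of the members. Between 90.5% and 100% of the exonic bases were free of another gene's exons in 8 of the 9 members, and 75.1% in Slc32a1. Adding the counts of the strand columns, which keep many of these reads, raised Dlx1 from 244 to 283 reads over the 10 libraries, Dlx6os1 from 104 to 111 and Slc32a1 from 5 to 8. The other genes of these families had almost no reads, with 0 for Dlx3, 1 for Dlx4 and 0 for the pseudogene Gad1-ps.

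Before the comparison, the label was checked on the deleted gene. Cdkn1c was covered by 32, 10 and 18 reads in cKO and by 116 to 369 in the controls, a log2 fold change of -3.66 (SE 0.31, edgeR adjusted p = 3.68e-06), with no overlap of the groups. Between 1738220 and 3362487 reads per library fell on genes, and 5.47% to 16.7% of the reads that aligned once fell outside genes. On that share the libraries lay in 2 sets, cKO replicates 1 and 2 with control replicates 3 to 5 above, and cKO replicate 3 with the other 4 controls below. The library names in the labels end in the same code for all 10, the methods name a HiSeq and a NextSeq instrument without saying which library ran on which, and no batch was matched to these sets. Levels are given in CPM, reads of a gene per 1000000 reads on genes after TMM scaling, where 1 CPM was worth 1.72 to 3.4 reads.

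The members were rare in every library. Together they took 115 to 296 reads per cKO library and 46 to 133 per control library, or 0.0016% to 0.0122% of the reads on genes. Per length, the highest member in both genotypes was Dlx2, at 5.83 ± 2.37 CPM per kb of unshared exon in cKO (SD, n = 3) and 1.85 ± 1.05 in controls (SD, n = 7). In the controls Dlx5 (1.73 ± 1.14), Dlx1 (1.45 ± 0.999), Lhx6 (0.782 ± 0.853), Gad2 (0.674 ± 0.418), Dlx6os1 (0.499 ± 0.443), Gad1 (0.483 ± 0.369), Dlx6 (0.176 ± 0.186) and Slc32a1 (0.0839 ± 0.113) followed, in CPM per kb. No neighbours in this order differed by more than the larger of their SDs. The control level per kb of Dlx2 stood at percentile 15.6 of the genes tested, and that of Gad1 at percentile 1.38. In cKO the order was Dlx2, Dlx5, Dlx1, Dlx6os1, Gad2, Lhx6, Dlx6, Gad1 and Slc32a1, and of its neighbours only Gad1 and Slc32a1 differed by more than the larger SD.

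For scale, 16 markers of the cortical projection lineage summed to 2972 to 5510 CPM per library, against 16.5 to 126 CPM for the 9 members. Some interneuron genes were nearly absent. Slc32a1 had 5 reads in all, the medial eminence factor Nkx2-1 and the calcium-binding protein Pvalb had 0 in every library, and Vip reached at most 2 reads. Others were not. The peptide gene Sst had 4 to 107 reads in the controls and 7 to 102 in cKO. The peptide gene Npy had 60 to 645 reads in the controls and 2 to 41 in cKO. In libraries of pooled cells, a change in the number of cells of a type and a change in RNA per cell cannot be told apart.

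All 7 members tested had a log2 fold change above 0 between cKO and control, from 0.79 to 1.79, and 1 of them, Dlx2, passed an adjusted p of 0.05. Over all 11551 genes tested, 51.3% had a log2 fold change above 0, and 2.27% were called higher in cKO and 0.883% lower. No member was called lower. The median log2 fold change was 1.34 over the 7 members tested and 0.01 over all genes tested. Of the 7, Dlx6os1, Gad1 and Lhx6 passed the filter only through their cKO reads, with control means of 6.14, 9.57 and 9.57 reads, so the counts and the median over the 7 are a description and no support for a direction. At an unadjusted p under 0.05, 5 members were higher and 0 lower, where 9.25% of all genes were higher and 7.11% lower. In no member did every cKO library lie above every control, against 3.32% of all genes tested. DESeq2 called Dlx2 alone as well (2.6% of genes called higher by it) and gave 3 members higher at an unadjusted p under 0.05, against 8.51% of all genes.

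**Figure D2:**
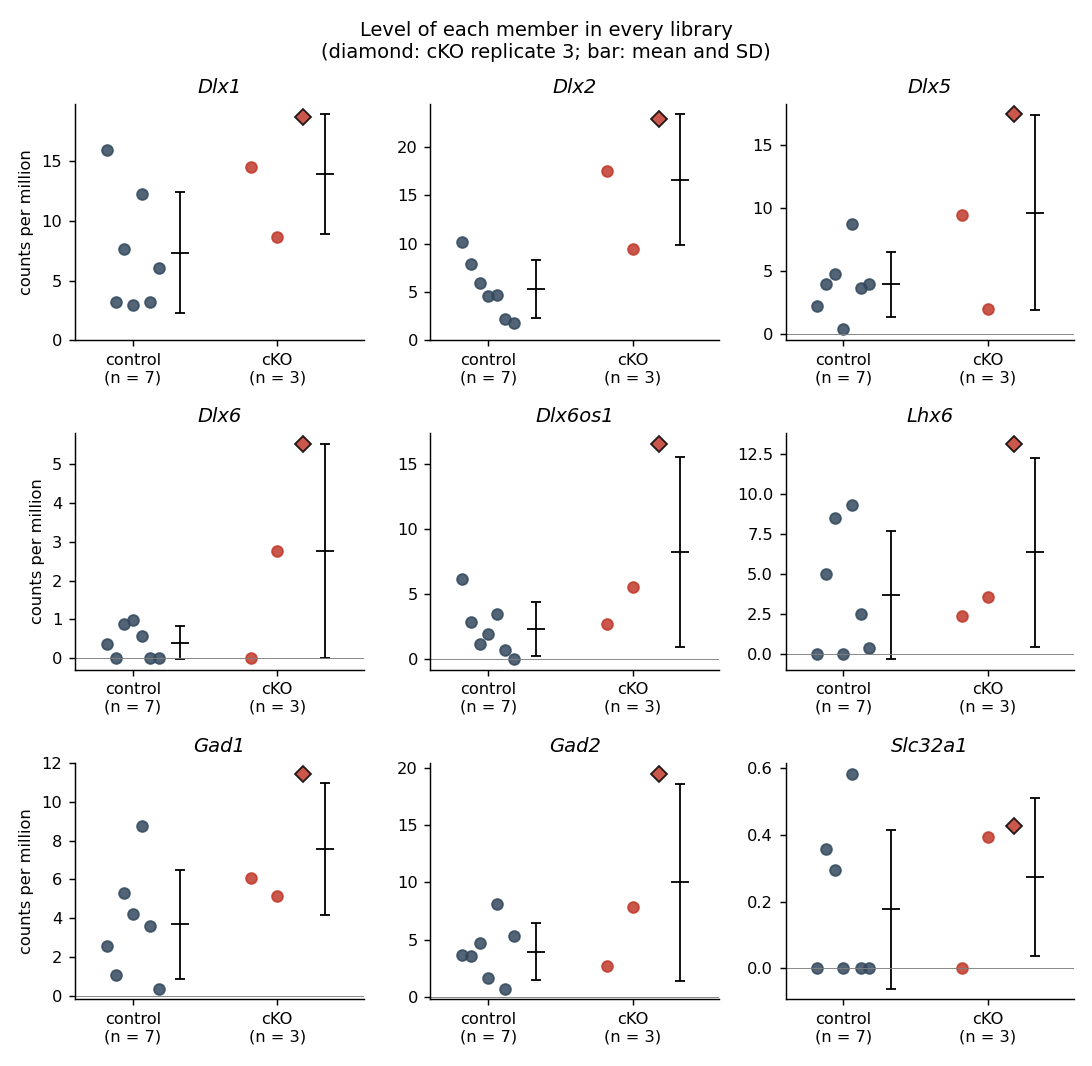
Level of each of the 9 members in CPM, with 1 point for each library of the controls (n = 7) and the cKO (n = 3), and the mean with its SD beside the points. The diamond is cKO replicate 3, which is the highest of the 10 libraries in 8 of the 9 panels.

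Dlx2 showed the clearest difference. Its DLX protein acts early, in progenitors of the ganglionic eminences. The cKO libraries held 52, 24 and 54 Dlx2 reads, or 17.5, 9.45 and 22.9 CPM. The controls ran from 5 to 28 reads with a median of 14, or from 1.78 to 10.2 CPM with a median of 4.66. Control replicate 1, the highest control, lay above cKO replicate 2 and below the other cKO libraries, so the groups overlapped by 1 library. Dlx2 was higher in cKO by 1.63 on the log2 scale (SE 0.41, 95% confidence interval 0.77 to 2.49, edgeR adjusted p = 0.0354), a 3.09-fold difference. DESeq2 gave 1.66 (SE 0.51, adjusted p = 0.0311) and limma-voom 1.73 (adjusted p = 0.0478), while the legacy form of the edgeR quasi-likelihood fit lost the call at 1.64 (adjusted p = 0.0776). With 1 library left out at a time, the log2 fold change stayed between 1.36 and 1.89, but the adjusted p ran from 0.0168 to 0.152 and was under 0.05 in 3 of the 10 fits, those without cKO replicate 2, control replicate 1 or control replicate 2. The call was lost without cKO replicate 1 or 3 (0.152 without replicate 3) and without any of control replicates 3 to 7.

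Dlx1, the partner of Dlx2 with largely shared expression in the ventral telencephalon, had 43, 22 and 44 reads in cKO (14.5, 8.67 and 18.7 CPM). The controls had 9 to 44 reads with a median of 17 (2.92 to 16 CPM, median 6.05). All cKO libraries lay above the control median, and control replicates 1 and 5 lay within the range of the cKO. The log2 fold change was 0.98 (SE 0.45, 95% confidence interval 0.03 to 1.93, edgeR adjusted p = 0.287), so the difference did not pass the test. With the strand columns added, which bring in reads shared with Dlx1as, it was 0.98 (adjusted p = 0.25).

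Dlx5, which acts later, in postmitotic cells, had 28, 5 and 41 reads in cKO (9.44, 1.97 and 17.4 CPM) and 1 to 16 in the controls (median 11, and 0.324 to 8.73 CPM with a median of 3.91). The cKO libraries were spread widely. Replicates 1 and 3 exceeded every control, while replicate 2 lay below all but 1 of them. The log2 fold change was 1.37 (SE 0.56, edgeR adjusted p = 0.219) and fell to 0.71 without cKO replicate 3.

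Dlx6 was listed with 0, 7 and 13 reads in cKO and 0 to 3 in the controls, with 0 reads in 1 cKO library and 3 controls. Its cKO mean was 2.76 ± 2.76 CPM (SD, n = 3) and its control mean 0.4 ± 0.423 CPM (SD, n = 7). Replicates 2 and 3 of the cKO lay above every control. The gene stayed below the filter, and in the fit without a filter it had a log2 fold change of 2.49 (SE 0.88, edgeR adjusted p = 0.0962), where 2.64% of 26537 genes were called higher.

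Dlx6os1, the antisense RNA also known as Evf2, had 8, 14 and 39 reads in cKO (2.7, 5.52 and 16.5 CPM). The controls had 0 to 17 reads with a median of 6 (0 to 6.17 CPM, median 1.95). Its log2 fold change was the largest of the members tested, 1.79 (SE 0.63, 95% confidence interval 0.47 to 3.12, edgeR adjusted p = 0.145). Control replicate 1 lay above cKO replicates 1 and 2. In the fit without a filter it was called (log2 fold change 1.78, adjusted p = 0.0136). Its mean fell under 10 reads without cKO replicate 3 and also without control replicate 1, so it was not tested in those fits.

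Lhx6, a LIM-homeodomain factor of interneurons from the medial ganglionic eminence, had 7, 9 and 31 reads in cKO and 0 to 29 in the controls, 2 of which had no Lhx6 read. The controls ran from 0 to 9.32 CPM and the cKO from 2.36 to 13.2 CPM, and cKO replicate 3 alone lay above the highest control. The log2 fold change was 0.79 (SE 0.77, 95% confidence interval -0.84 to 2.42, edgeR adjusted p = 0.684). Like Dlx6os1, Lhx6 dropped below the filter in 2 of the fits with a library left out, those without cKO replicate 3 and without control replicate 3.

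For GABA synthesis, Gad1 had 18, 13 and 27 reads in cKO (6.07, 5.12 and 11.5 CPM) and 1 to 18 in the controls (0.356 to 8.73 CPM, median 3.6). Its log2 fold change was 1.08 (SE 0.52, edgeR adjusted p = 0.318). Gad2 had 8, 20 and 46 reads in cKO (2.7, 7.88 and 19.5 CPM) and 2 to 16 in the controls (0.719 to 8.15 CPM, median 3.63). Its log2 fold change was 1.34 (SE 0.55, edgeR adjusted p = 0.230). Without cKO replicate 3 these values fell to 0.69 for Gad1 and 0.45 for Gad2. For GABA loading, Slc32a1 had 0, 1 and 1 reads in cKO and 0 or 1 in each control, so a difference was not detectable at this depth.

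**Figure D3:**
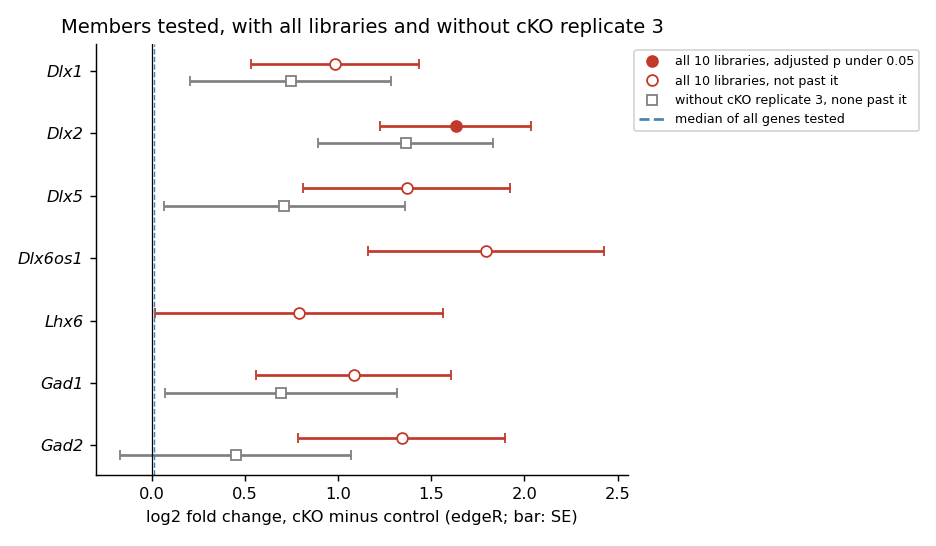
Log2 fold change, cKO minus control, of the 7 members tested, with SE from edgeR, for all 10 libraries (circles, filled where the adjusted p is under 0.05) and without cKO replicate 3 (squares, given for the 5 members that still passed the filter). Dlx2 alone is filled, and no square passes the threshold.

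A single cKO embryo stood apart in these genes, cKO replicate 3. It was the highest of the 10 libraries in 8 of the 9 members and in all 7 tested, and it was the highest in 12.3% of all genes tested. Slc32a1, the exception, was highest in control replicate 5, on 1 read. Summed over the 9 members, cKO replicate 3 reached 126 CPM and cKO replicates 1 and 2 reached 55.3 and 45.3 CPM. The controls ran from 16.5 to 56.5 CPM with a median of 27.8, and the highest, control replicate 5, exceeded cKO replicates 1 and 2. That control library also had the fewest reads on genes. Microglial genes also peaked in cKO replicate 3, where 8 of them summed to 45 CPM against at most 7.42 CPM in any other library, and their part in the levels of the members was not tested. Leaving out cKO replicate 3 lowered the log2 fold change of each of the 5 members that could still be fitted and left none called.

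**Figure D4:**
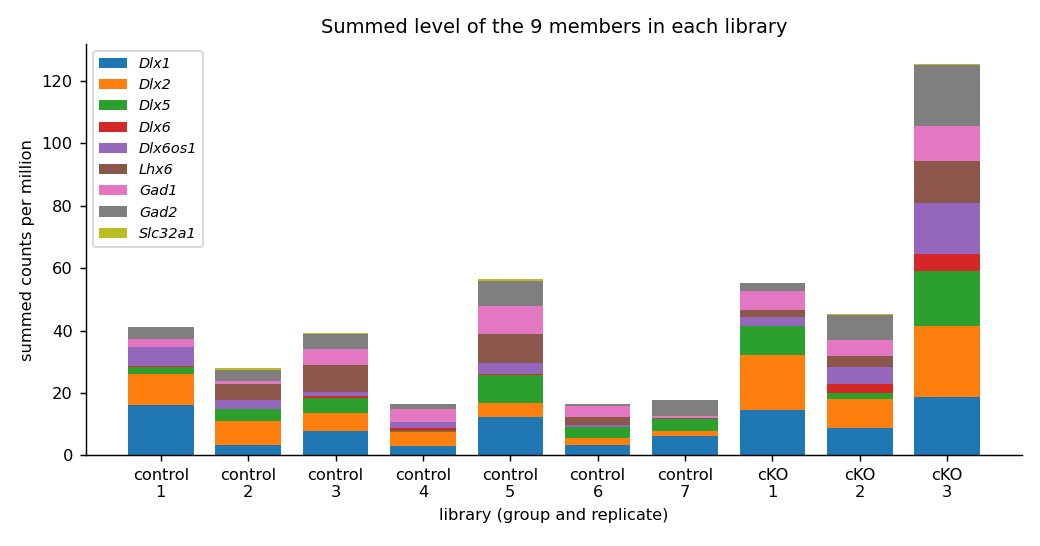
Sum of the 9 members in CPM for each library, stacked by gene, with the 7 controls on the left and the 3 cKO libraries on the right. The bar of cKO replicate 3 reaches 126 CPM, and control replicate 5 (56.5 CPM) stands above cKO replicates 1 (55.3 CPM) and 2 (45.3 CPM).

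Within the 2 sets of libraries that differ in reads outside genes, the members behaved unevenly. In the set with the larger share (2 cKO and 3 controls), the ratio of mean CPM in cKO to control was 2.68 for Dlx2, 1.86 for Dlx6os1, 1.52 for Dlx1, 1.24 for Dlx5, 1.10 for Gad2, 0.92 for Gad1 and 0.496 for Lhx6. Both cKO libraries of that set exceeded its controls in Dlx2, at 9.45 and 17.5 CPM against 4.54 to 5.89. In the set with the smaller share (cKO replicate 3 and 4 controls) the ratio was 4.18 for Dlx2 and between 2.62 and 6.79 for the other 6 members tested. Dlx2 was thus higher in cKO in each set, while Gad1 and Lhx6 were lower in 1 of them. The ratios carry no test, since the smaller set holds 1 cKO library. When that share entered the fit as a covariate, Dlx2 had a log2 fold change of 1.69 (edgeR adjusted p = 0.0389).

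Levels of the members were also compared across embryos. After the mean of each genotype was removed from log2 CPM, the 21 pairs of members tested had Pearson's r between 0.102 and 0.771 over the 10 libraries, with a median of 0.448. Without cKO replicate 3 the pairs ran from -0.173 to 0.748 with a median of 0.272 over 9 libraries. Over all pairs of other genes with a mean of 10 to 30 reads the median was 0.0086 with all libraries, and r ran from -0.992 to 0.997. The points share library and depth, and low counts limit them. The genes whose deviations followed the mean of the tested members most closely were Zfp938, Cryzl1, Haspin, Lingo2, Fra10ac1, Zfp273, Serpinb6a, Ak3, Ndufab1 and Fh1, with r from 0.951 to 0.874 over 10 libraries. These 10 were picked as the highest of 11544 values and carry no test. None of the 10 is on an interneuron list, and none was called between the genotypes. The interneuron list gene nearest to the members was the chemokine receptor gene Cxcr4, at rank 136 of 11544 (r = 0.697).

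Other genes of the pathway moved in both directions. Outside the members, 84 genes of ventral forebrain progenitors, interneurons, striatal neurons and GABA handling had been listed, of which 52 were tested. Of these, 7 were called higher in cKO and 2 lower, or 17.3%, against 3.15% of all genes tested in either direction. The lists were chosen with earlier results known. Rxrg and Slc12a5 passed the filter only through cKO, and so did Maf, Ebf1 and Rpp25, which were not called. The median log2 fold change of the 52 was 0.43. The share and this median are a description and no support for a difference. With cKO replicate 2 left out, 5 were called in place of 9. The 7 were Nr2f2, Prox1, Rxrg, Calb2, Ackr3, Nrp2 and Slc12a5, and the 2 were Cux2 and Npy.

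Among the 12 ventral progenitor regulators, 5 were tested and none was called (median log2 fold change 0.04). Of the factors of the medial eminence, 8 of 10 were tested, with 0 called higher and Cux2 called lower. Cux2, which also marks upper-layer projection neurons, was at 25.2 to 50.3 CPM in cKO and 55.9 to 114 CPM in the controls, and fell by 1.07 on the log2 scale (SE 0.25, edgeR adjusted p = 0.0257). The call was lost without cKO replicate 2 (adjusted p = 0.086) or 3 (0.1).

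Of the factors of the caudal and lateral eminences, 8 of 12 were tested, all 8 had a log2 fold change above 0 (median 1.02), and 2 were called higher. Nr2f2, the nuclear receptor COUP-TFII, had 376, 399 and 245 reads in cKO and 112 to 217 in the controls, with no overlap, and rose by 1.16 on the log2 scale (SE 0.17, edgeR adjusted p = 0.000726). Its call held in each alternative fit, including each library left out. Prox1, a homeodomain factor, had 48 to 76 reads in cKO and 6 to 50 in the controls, and its scaled levels did not overlap, at 20.4 to 25.6 CPM against 2.18 to 18.6. It rose by 1.44 (SE 0.38), at an adjusted p of 0.0499 in edgeR that DESeq2 put at 0.0684 and the fit with the share of reads outside genes at 0.0611. Its call held in edgeR without control replicate 4 or 5 and was lost without any of the other 8 libraries.

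The striatal list had 7 of 17 genes tested and 1 called, Rxrg, a retinoid receptor, with 17 to 45 reads in cKO and 0 to 16 in the controls. Its log2 fold change was 2.70 (SE 0.65, edgeR adjusted p = 0.0239), but DESeq2 gave an adjusted p of 0.332, and the call was lost without cKO replicate 1 (0.0836), cKO replicate 3 (0.103) or control replicate 3 (0.0514). Without control replicate 5 its log2 fold change was 3.34. Its control mean of 5.43 reads was under the filter. The median of this list was -0.16. Among interneuron peptides and calcium-binding proteins, 6 of 10 were tested, 1 was called higher and 1 lower. Calb2, the calretinin gene, rose from 4.71 to 66.8 CPM in the controls to 126 to 259 CPM in cKO (log2 fold change 2.47, SE 0.43, edgeR adjusted p = 0.00276). Calretinin also marks Cajal-Retzius cells, and without it the listed genes had 6 called higher. Npy, the neuropeptide Y gene, had 13, 2 and 41 reads in cKO against 60 to 645 in the controls, and fell by 3.64 on the log2 scale (SE 0.83, edgeR adjusted p = 0.0205). The call for Npy was lost in limma-voom (adjusted p = 0.118), with robust dispersion (0.123) and without cKO replicate 1 (0.0845) or 2 (0.0596). Without cKO replicate 3 the difference was -5.02 on the log2 scale (0.037). Sst, the somatostatin gene of medial eminence interneurons, is named outside the rule after its values were seen. It had 7 to 102 reads in cKO and 4 to 107 in the controls, with a log2 fold change of 0.12 (SE 0.82, edgeR adjusted p = 0.962).

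Among migration and synapse genes, 10 of 16 were tested and 2 were called higher. Ackr3, the atypical CXCL12 receptor, had 61, 68 and 83 reads in cKO and 13 to 61 in the controls, with no overlap in CPM, and rose by 1.38 on the log2 scale (SE 0.32, edgeR adjusted p = 0.0213), a call lost without cKO replicate 3 (0.111). Nrp2, a semaphorin receptor, rose by 1.23 (SE 0.30, edgeR adjusted p = 0.0320), a call lost without cKO replicate 1 (0.149) or 2 (0.0585) and without control replicate 2, 3 or 7. Its groups overlapped (64.9 to 118 CPM in cKO, 12.7 to 76.3 CPM in the controls), and the call was also lost with the share of reads outside genes in the fit (0.059) and in the legacy fit (0.0802). Among genes of GABA uptake, breakdown and chloride transport, 9 of 10 were tested and 1 was called. Slc12a5, which encodes the chloride exporter KCC2, had 26, 36 and 14 reads in cKO and 1 to 9 in the controls, with no overlap, and rose by 2.00 (SE 0.43, edgeR adjusted p = 0.0127). Its control mean was 6.57 reads, and without cKO replicate 2 its mean over the libraries fell under 10 reads and it was not tested.

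Genes linked to DLX factors in earlier work were listed by direction. Of the activated genes outside the members, 4 of 4 were tested and 1 (Ackr3) was called higher. Of the repressed genes, 3 of 4 were tested and 1 (Nrp2) was called higher, with a list median of -0.03. The plot of the lists shows each tested gene.

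**Figure D5:**
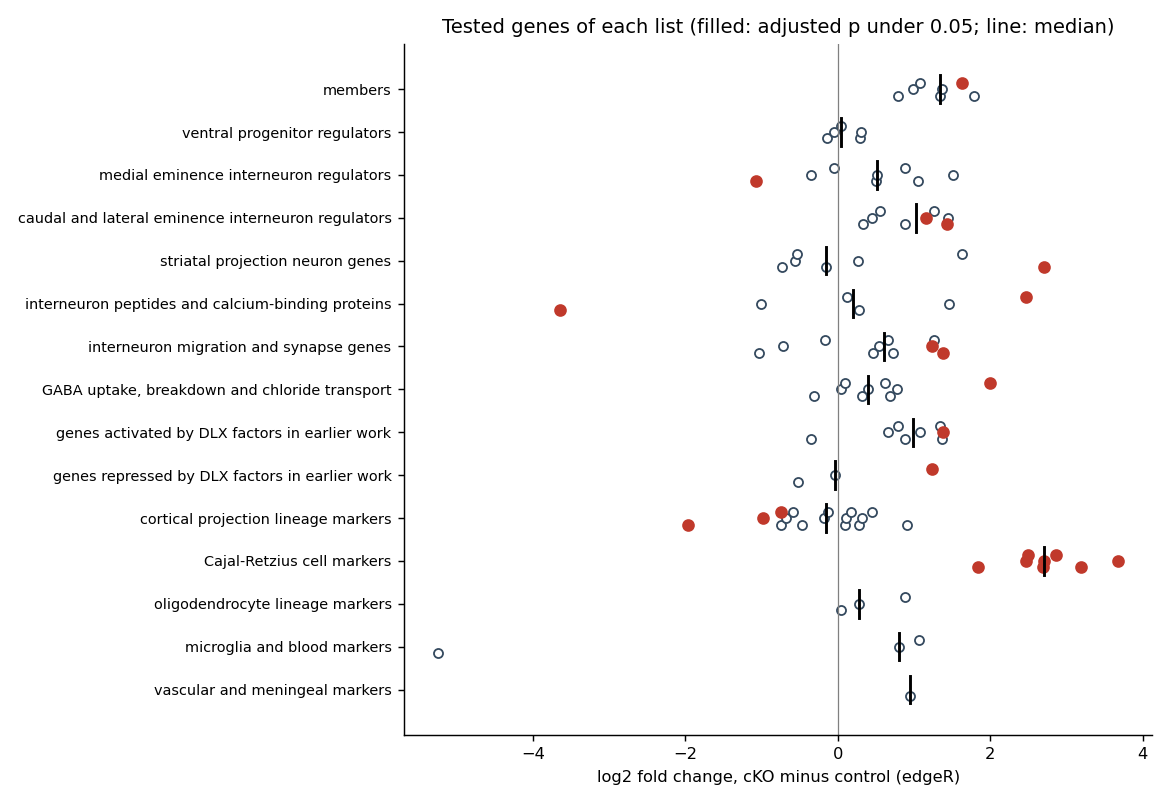
Log2 fold change, cKO minus control, of each tested gene by list, with filled points for an adjusted p under 0.05 in edgeR and a vertical line at the median of the list. The 7 members tested lie between 0.79 and 1.79 with 1 filled, and the 8 Cajal-Retzius markers tested are all filled.

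Markers of other cell types moved with genotype beside these genes. All 8 Cajal-Retzius cell markers tested were called higher in edgeR, by 1.84 to 3.68 on the log2 scale, and 6 of them in DESeq2, where Ndnf (adjusted p = 0.236) and Trp73 (0.0807) were not. Of the 8, Lhx1 and Cacna2d2 had control means under 10 reads and passed the filter only through cKO. The highest log2 fold change of these markers, that of Lhx1, was 4.33 without control replicate 4. The list of 11 markers summed to 663 to 912 CPM in cKO and 26.5 to 237 CPM in the controls. The library highest in that sum, at 912 CPM, was cKO replicate 3. Reln rose from 2.88 to 78.8 CPM in the controls to 246 to 364 CPM in cKO. Of 16 markers of the cortical projection lineage, 0 were called higher and 3 lower, among them Neurod2 and Neurod6, with sums of 2972 to 3420 CPM in cKO and 4618 to 5510 CPM in the controls. Microglia and blood markers summed to 31.9 to 1917 CPM in cKO and 0.36 to 1550 CPM in the controls. The range of that sum comes mostly from 4 haemoglobin genes. The 3 markers tested, Hba-a1, Hba-a2 and Hbb-bs, are haemoglobin genes, and 0 were called. None of the 8 microglial genes reached the filter, so none was tested. The 8 microglial genes of the list, taken apart after their values were seen, summed to 45 CPM in cKO replicate 3, 7.42 and 4.73 CPM in cKO replicates 1 and 2, and 0 to 4.86 CPM in the controls. In cKO replicate 3 the receptor gene Csf1r had 25 reads and the complement gene C1qa 21, against 0 and at most 2 in any control. Vascular and meningeal markers summed to 27.3 to 65 CPM in cKO and 12.3 to 32.5 CPM in the controls, with 1 of 12 tested. That gene, Dcn, was not called, at a log2 fold change of 0.94 (SE 0.32, edgeR adjusted p = 0.137). Oligodendrocyte lineage markers summed to 28.4 to 52.3 CPM in cKO and 10.8 to 101 CPM in the controls, with 3 of 9 tested and none called. The part of these cell types in the levels of Dlx2, Nr2f2, Calb2 and the other listed genes was not tested.

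Genes near the Dlx pairs did not pass the test. Of 10 protein-coding genes within 500 kb of Dlx1 and Dlx2, 9 were tested and 0 were called in edgeR. At an unadjusted p under 0.05 there were 3, Hat1 and Rapgef4 higher in cKO and Pdk1 lower. Over all genes tested, 9.25% were higher and 7.11% lower at that level. The smallest adjusted p was that of Hat1, a histone acetyltransferase gene 86.5 kb away, with a log2 fold change of 0.68 (SE 0.20, edgeR adjusted p = 0.0774). Metap1d, the closest gene at 2.92 kb, had a log2 fold change of 0.64 (SE 0.33, edgeR adjusted p = 0.358). Near Dlx5 and Dlx6, Sem1 and Sdhaf3 were tested, at log2 fold changes of 0.15 and -0.14, and neither was called.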

How the data were processed

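RNA-seq was performed on sorted neocortical cells of 3 cKO and 7 control E16 embryos. After merging technical replicates and aligning to GRCm38 with STAR 2.5.0c, where only uniquely aligned reads were retained, the authors deposited raw read counts for GENCODE M16 genes, unnormalised, in an unstranded column and in 1 column for each strand. The unstranded column was used here. Symbols and positions came from GENCODE M21 (50604 of 53379 genes matched by identifier and version, 2670 by identifier alone, 105 not matched). Dlx6os1 was taken as its antisense RNA, not its short RNA. Genes that reached a mean of 10 reads were tested with edgeR 4.0.16 (TMM, glmQLFit with legacy = FALSE, genotype alone) in R 4.3.3, with Benjamini-Hochberg adjustment over all 11551 genes and a threshold of 0.05. Alternatives were DESeq2 1.42.0, limma-voom (limma 3.58.1), other size factors and filters, the strand columns, a replicate block, a covariate for reads outside genes, robust dispersion and each library left out. The legacy form of the quasi-likelihood fit was added after the data had been seen. The procedure was tested on simulated counts. Log2 CPM for likeness used a prior count of 2.

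Between 1738220 and 3362487 reads per library fell on genes. The median SE of a log2 fold change was 0.27 over all genes tested and 0.45 over the 2305 genes with a mean of 10 to 30 reads, where the tested members lie, of which 4.16% were called higher. Reads were not counted as molecules, so p values cover counting error and the spread between embryos. The 24 pairs of libraries of 1 genotype differed by 4.69 to 20.9 in chi-square per degree of freedom, so none was taken as a duplicate. The members and lists were chosen with earlier results of these data known. Genes named are the members, Cdkn1c, the genes of each list with an adjusted p under 0.05 and otherwise at most 3 of smallest p, the 10 genes most like the members, and protein-coding genes within 500 kb of the Dlx pairs. Some genes that were tested are not reported here. Sst, Vip, Nkx2-1, Pvalb, Cxcr4, Maf, Ebf1 and Rpp25 were named after their values were seen.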

Additional observations from a re-analysis of the deposited data

Results flagged for a closer look

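The 7 controls were searched for a library far from the others in each of 28 named genes, by the gap between the extreme library and its nearest neighbour as a share of the range (critical value 0.568). Chance flags about 1 in 20 such groups, and 2 genes were flagged, neither of them a member. Slc12a5 was at 0.324 CPM (1 read) in control replicate 4, where the nearest control had 2.35 CPM (gap ratio 0.641). Neurod2 was at 459 CPM in control replicate 5, where the nearest control had 519 CPM (gap ratio 0.616). Groups of 3 libraries were not searched, so cKO replicate 3, the highest library in 8 of the 9 members, was not assessed this way.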

How the results depend on the processing

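Over all alternatives, the members gave 136 log2 fold changes, each of them above 0. These are refits of the same 10 libraries, and the filter removed Dlx6os1 and Lhx6 from the fit without cKO replicate 3. The 136 values are therefore a description and no support for a direction. The call of Dlx2 changed between the fits. The number of members called higher was 1 in the fit reported, 2 without a filter (Dlx2 and Dlx6os1), 0 in the legacy quasi-likelihood fit (Dlx2 adjusted p = 0.0776), and 0 to 1 with each library left out. With the replicate block it was 0 (Dlx2 log2 fold change 1.06, adjusted p = 0.437). The labels give replicate numbers and do not state that they pair the embryos. Same-numbered libraries had correlations of deviations of 0.0407, -0.103 and -0.211, which gave no sign of pairing. So few pairs cannot exclude it. Of the interneuron-related genes, 9 were called in the fit reported, 23 without a filter, and 5 to 9 with each library left out. Over the whole table, 364 genes were called, 961 without a filter, 213 with the replicate block, and 271 to 424 with a library left out. The cause of these changes was not tested. Dlx6os1 and Lhx6 could not be fitted in 2 of the 10 fits with a library left out, because their mean fell under 10 reads. Depth limits the members, with 5 to 244 reads for each over all libraries.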
